A study of Mus musculus with 6 samples.

Results

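The 8 listed genes lie on the path by which a hepatocyte takes in glucose and fructose and turns them into pyruvate, together with the transcription factor ChREBP (gene Mlxipl) that responds to sugar. They were chosen by name, as probe sets annotated with a single symbol from the list, and 7 of the 8 were measured, each by 1 probe set, out of 19938 genes with such a probe set. The genes were Slc2a2, Gckr, Khk, Pfkl, Pfkfb3, Pklr and Mlxipl. Pfkfb1 was matched to no probe set with 1 symbol and was not analysed here.

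Liver RNA came from 6 female C57BL/6 mice, all 3 months old and all starved for 6 h. In 3 mice (replicates 1, 3 and 5) both Lmna alleles carried the G609G knock-in, and the other 3 (replicates 2, 4 and 6) were wild-type. The G609G allele alters splicing of the lamin A transcript and models the premature ageing syndrome Hutchinson-Gilford progeria. It is a germline allele, so every cell of the body carried it. Each mouse had 1 array with 1 colour, read as 1 intensity per probe set on a linear scale, and the sources used here do not say whether mice shared a litter or array batch.

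Glucose enters and leaves hepatocytes through the carrier GLUT2 (gene Slc2a2), which needs no insulin. Gckr encodes a regulatory protein that restrains the phosphorylation of glucose until sugar rises. Fructose is phosphorylated by ketohexokinase (Khk), and both sugars meet in the lower part of glycolysis, which ends with the liver pyruvate kinase encoded by Pklr. ChREBP, with its partner Mlx, switches on Pklr and genes of fat synthesis when sugar is plentiful, and it does so by binding paired E-box-like half-sites known as the carbohydrate response element (ChoRE).

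The stretches before the start sites of 4 of these genes show where such letters lie. Windows of the 250 bases before each RefSeq start (GRCm38.p6, plus strand for the genes shown) were searched on both strands for CACGNNNNNNNNNCGTG, the spaced half-site pair, and for the full E-box CACGTG. RefSeq windows were found for all 8 genes, 14 windows in all. Pklr is shown because its change was the largest of the 7, Slc2a2 because its change came next, and Mlxipl and Khk because an E-box lies in their windows. Capitals mark the half-sites or the E-box.
Pklr, chr3:89136373-89136622: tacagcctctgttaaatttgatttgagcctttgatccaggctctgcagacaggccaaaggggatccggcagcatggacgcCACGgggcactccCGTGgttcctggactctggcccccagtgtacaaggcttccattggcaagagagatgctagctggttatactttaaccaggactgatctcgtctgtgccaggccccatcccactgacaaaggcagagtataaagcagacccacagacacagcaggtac
Slc2a2, chr3:28697653-28697902: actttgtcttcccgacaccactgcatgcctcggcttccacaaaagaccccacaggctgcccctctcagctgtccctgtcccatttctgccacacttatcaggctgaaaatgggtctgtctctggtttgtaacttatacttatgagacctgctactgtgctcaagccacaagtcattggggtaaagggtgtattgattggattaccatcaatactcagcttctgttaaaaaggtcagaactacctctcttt
Mlxipl, chr5:135089640-135089889: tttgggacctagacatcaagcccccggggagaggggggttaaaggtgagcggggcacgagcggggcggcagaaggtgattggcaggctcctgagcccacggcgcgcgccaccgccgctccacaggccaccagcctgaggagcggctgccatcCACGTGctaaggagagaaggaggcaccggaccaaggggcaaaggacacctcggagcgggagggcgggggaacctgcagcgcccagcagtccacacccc
Khk, chr5:30921309-30921558: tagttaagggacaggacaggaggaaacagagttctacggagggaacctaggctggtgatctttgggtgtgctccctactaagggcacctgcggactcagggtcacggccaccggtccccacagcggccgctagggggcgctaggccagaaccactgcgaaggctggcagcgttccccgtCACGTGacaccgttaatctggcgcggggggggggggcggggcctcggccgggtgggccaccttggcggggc

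The Pklr window held the half-site pair, with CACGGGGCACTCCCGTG from 170 to 154 bases before the start. Pklr has 2 RefSeq starts, 481 bases apart, and the window shown lies before the downstream start. Of 32851 windows in the table, 72 (0.219%) held the pair, and 6.02% held the E-box. Mlxipl has 2 RefSeq starts, 17001 bases apart, and an E-box lay from 98 to 93 bases before the upstream one. In Khk an E-box lay from 71 to 66 bases before the start. An E-box also lay in 1 of 2 Pfkfb3 windows, and neither the pair nor the E-box was in the Slc2a2 window. Of the 23 ChREBP partners and targets listed below, 0 of those tested held the pair in these windows. Of 48 tested genes with the pair, 7 were called lower by limma, Pklr among them, and 9 were called higher, with a median log2 change of 0.027. These counts lie near the shares over all 16148 genes tested, of which 13.7% were called lower and 13.0% higher. A match is a string of letters, and binding was not measured, so these counts do not test the part of ChREBP.

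Liver pyruvate kinase, GLUT2 and ChREBP transcripts were lower in knock-in liver, and the other 4 measured members showed no called difference. Pklr was 4.82-fold lower, Slc2a2 2.59-fold lower and Mlxipl 1.50-fold lower. Those 3 of the 7 genes were called lower and 0 higher, by limma with a Benjamini-Hochberg adjusted p below 0.05 over 26664 probe sets. Over the series as a whole, 10.9% of tested probe sets were called lower and 15.0% higher, or 25.9% in all. With arrays centred on their medians the numbers were 3426 lower and 3141 higher, against 2913 and 3991 as deposited. All 7 genes had negative log2 changes, with a median of -0.59, while the median over all 16148 genes tested was 0.0037. Fold changes are on the log2(intensity + 16) scale.

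**Figure D1:**
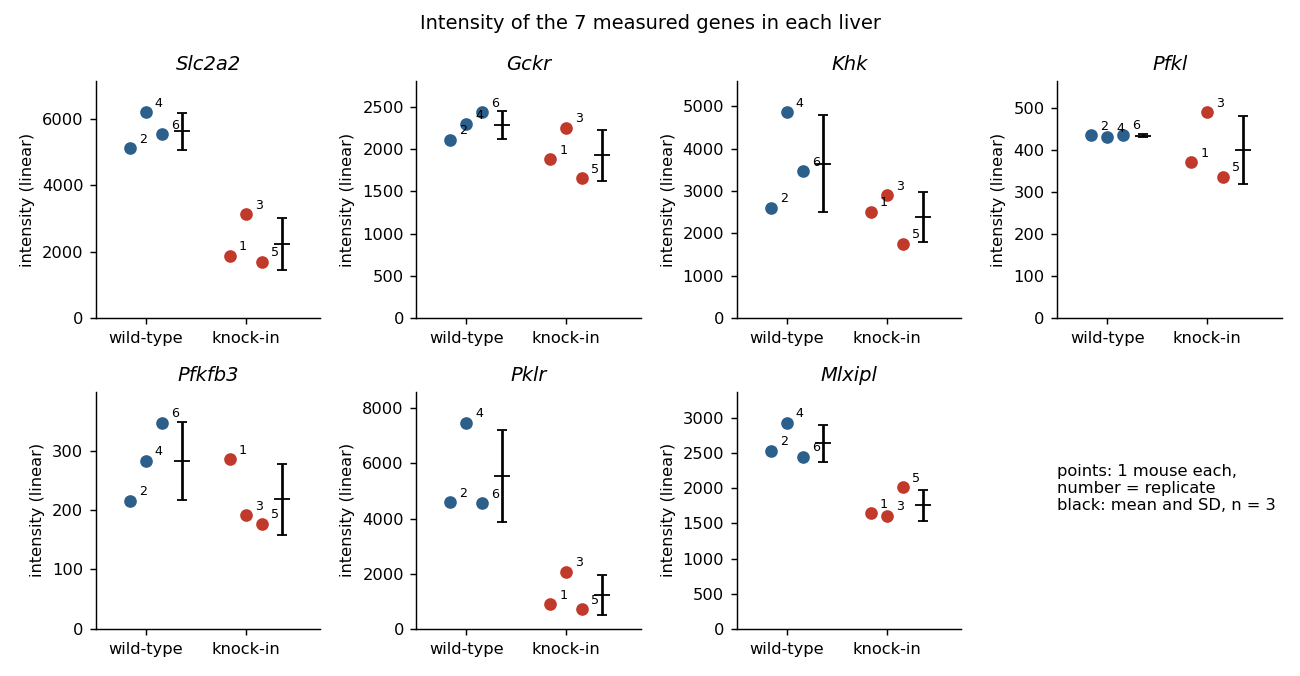
Intensity (linear scale, axes from 0) of the 7 measured genes, with 1 point per mouse numbered by replicate and the mean and SD of 3 mice beside it. The genotypes are apart for Slc2a2, Pklr and Mlxipl and overlap for Gckr, Khk, Pfkl and Pfkfb3. They are apart at 41.2% of all tested probe sets.

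The targeted gene was read first. Lmna read 290, 249 and 258 for knock-in replicates 1, 3 and 5, against 282, 267 and 362 in wild-type replicates 2, 4 and 6, with no called difference (log2 change -0.17 ± 0.13 SE; limma adjusted p = 0.40). This probe set does not separate splice forms, so it does not check the genotype. Array medians lay between 97.0 and 104. Knock-in replicate 3 correlated most closely with the wild-type mean across probe sets (r = 0.980, against 0.969 and 0.965 for the other knock-in mice).

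Uptake of sugar was represented by Slc2a2. It read 1885, 3137 and 1700 in knock-in replicates 1, 3 and 5, and 5123, 6213 and 5543 in wild-type replicates 2, 4 and 6. The genotypes did not overlap, as was so at 41.2% of all tested probe sets, and knock-in replicate 3 stood highest of its group. The log2 change was -1.37 ± 0.22 (SE, n = 3 mice per genotype; 95% interval -1.88 to -0.86; limma adjusted p = 0.0044).

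Among 18 other sugar transporters, all tested, 4 were called higher, 2 lower and 12 not called, with a median log2 change of 0.0057. The median was -0.05 on centred arrays. It was 0.37 when only probe sets from the 50th percentile up, and so fewer of these genes, were tested. The shares over all 16148 genes tested were 13.0% called higher and 13.7% lower. Slc2a1, which encodes the widely expressed carrier GLUT1, rose 3.26-fold. It read 1480, 1480 and 1696 in knock-in livers against 483, 524 and 396 in wild-type livers, so each knock-in mouse lay far above each wild-type mouse (log2 change 1.70 ± 0.13; limma adjusted p = 0.00037).

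Slc2a5, which encodes the fructose carrier GLUT5, fell to 64, 61 and 55 from 182, 219 and 146 (log2 change -1.37 ± 0.14; limma adjusted p = 0.00098). The knock-in values were dim, below every array median, and the change ran from -1.57 to -0.98 over the alternatives that kept all mice. Slc2a9, a urate carrier of the same family, fell by 0.68 on the log2 scale. Slc37a1 (0.67 ± 0.09) and, named after their values were seen, Slc37a4 (0.37 ± 0.09) and Slc2a8 (0.39 ± 0.10) rose. Slc37a4 carries glucose 6-phosphate into the endoplasmic reticulum for release as glucose. The calls of Slc37a4 and Slc2a8 were each lost when knock-in mouse 1 or 5, or wild-type mouse 2 or 6, was left out (adjusted p = 0.063 to 0.070 and 0.075 to 0.11), and that of Slc2a8 also with quantile normalization (adjusted p = 0.0503). Without any 1 of those 4 mice, 2 of the transporters were called higher.

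The phosphorylation step was represented by Gckr and Khk. Gckr, the regulatory protein, read 1877, 2252 and 1653 in knock-in livers against 2112, 2295 and 2439 in wild-type livers. Knock-in replicate 3 lay within the wild-type range and the other 2 knock-in mice below it. The log2 change of -0.25 ± 0.13 was not called (95% interval -0.55 to 0.048; limma adjusted p = 0.20), but without knock-in replicate 3 it was -0.37 and called (adjusted p = 0.039).

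Khk, the fructose kinase, read 2510, 2907 and 1759 in knock-in livers against 2612, 4869 and 3473 in wild-type livers. Wild-type replicate 4 stood well above the other mice, and knock-in replicate 3 lay above wild-type replicate 2. The log2 change of -0.59 ± 0.26 was close in size to that of Mlxipl but was not called (95% interval -1.19 to 0.0055; limma adjusted p = 0.14). It rested more on single mice than that of Mlxipl did, at -0.36 with wild-type mouse 4 left out, -0.39 with knock-in mouse 5 left out and -0.81 with wild-type mouse 2 left out. Hk1, a hexokinase of most tissues (named after its values were seen), read 4954 to 5902 in knock-in and 4567 to 4701 in wild-type mice and was not called over all mice (limma adjusted p = 0.081), though it was without knock-in replicate 3 (adjusted p = 0.024) and with array weights (adjusted p = 0.027).

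The genes that carry fructose, polyols and galactose onward were lower where they were called. Of 16 listed, 9 were tested, of which 4 fell, 0 rose and 5 were not called, with a median log2 change of -0.27. Over all tested genes 26.7% were called in either direction. Glyctk, the glycerate kinase that disposes of a product of fructose breakdown, read 562, 500 and 483 in knock-in livers against 1835, 1888 and 2005 in wild-type livers. Its groups stood far apart (3.63-fold lower; log2 change -1.86 ± 0.10; limma adjusted p = 0.00011). Galm, which interconverts forms of galactose and glucose, was 2.47-fold lower. Tkfc, the triose kinase of the same fructose branch as Khk, read 2938 to 3818 against 5249 to 6746 (1.76-fold lower; limma adjusted p = 0.0042). Pmm2, which makes mannose 1-phosphate, fell by 0.56.

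**Figure D2:**
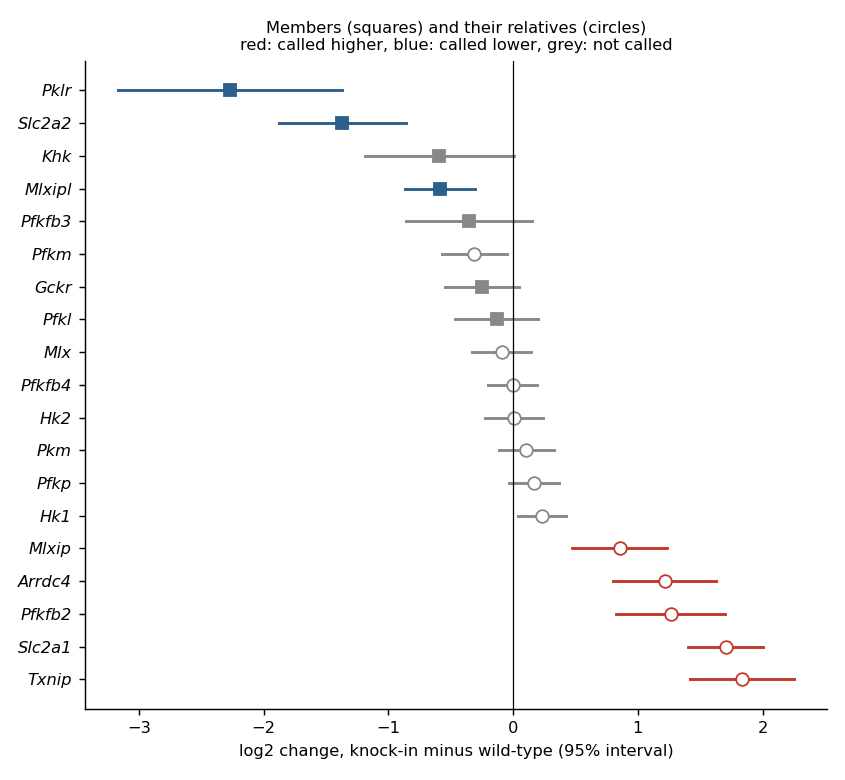
Log2 change (knock-in minus wild-type) with its 95% interval for the 7 members (squares) and their isoenzymes, partners and related genes (circles), coloured by the limma call. Pklr at -2.27 and Slc2a2 at -1.37 lie at one end, and Slc2a1 at 1.70 and Txnip at 1.83 at the other.

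The committed step of glycolysis showed no called difference in its measured liver genes. Pfkl, the liver phosphofructokinase subunit, read 372, 491 and 337 in knock-in livers against 436, 431 and 437 in wild-type livers. The knock-in values lay on both sides of the tight wild-type range. The log2 change was -0.13 ± 0.14 (95% interval -0.46 to 0.20; limma adjusted p = 0.56). The subunit genes Pfkm (log2 change -0.31 ± 0.11; limma adjusted p = 0.082) and Pfkp (0.16 ± 0.09; limma adjusted p = 0.21) were not called either.

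Pfkfb3 encodes an enzyme that makes the activator of phosphofructokinase, and it read 286, 191 and 177 in knock-in livers against 216, 283 and 347 in wild-type livers. The groups overlapped, with knock-in replicate 1 above wild-type replicate 2 (log2 change -0.35 ± 0.22; 95% interval -0.86 to 0.15; limma adjusted p = 0.28). Its family member Pfkfb2 rose. It read 1741, 1524 and 1554 in knock-in livers against 481, 747 and 796 in wild-type livers, each knock-in mouse above each wild-type mouse (2.40-fold; log2 change 1.26 ± 0.19; limma adjusted p = 0.0034). Whether the changes of Pfkfb2 and Pfkfb3 differ was not tested. Pfkfb4 stayed between 60 and 72 on all 6 arrays (log2 change -0.0046 ± 0.083).

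Of 25 further genes of glycolysis listed, 20 were tested. Of those, 3 were called higher, 2 lower and 15 not called, with a median log2 change of 0.082. These counts lie near the shares over all 16148 genes tested, of which 13.0% were called higher and 13.7% lower. Besides Pfkfb2, Adpgk, a glucose kinase that uses ADP, rose (0.54 ± 0.12), and so did Ldhb, a lactate dehydrogenase subunit gene named after its values were seen (0.60 ± 0.15). The call of Adpgk was lost without wild-type replicate 2 (adjusted p = 0.057), and that of Ldhb when knock-in mouse 1 or 5, or wild-type mouse 2 or 6, was left out (adjusted p = 0.059 to 0.078). Pgam1, a phosphoglycerate mutase, fell by 0.64, and Bpgm, its red cell relative, fell by 0.41. Bpgm was dim, at 78 to 83 against 101 to 121.

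Pklr had the largest change of the 7 genes. It read 904, 2079 and 720 in knock-in replicates 1, 3 and 5, and 4602, 7475 and 4566 in wild-type replicates 2, 4 and 6. Knock-in replicate 3 stood above the other knock-in mice and wild-type replicate 4 above the other wild-type mice. The genotypes did not overlap, as at 41.2% of all tested probe sets. The log2 change was -2.27 ± 0.38 (SE, n = 3 mice per genotype; 95% interval -3.17 to -1.37; limma adjusted p = 0.0055), at place 91 of 26664 probe sets ordered from the most lowered. Without knock-in replicate 3 it was -2.72, and without knock-in replicate 5 it was -1.96.

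Pkm, the pyruvate kinase gene of most other tissues, had 2 probe sets and neither was called. The brighter read 475, 478 and 496 in knock-in livers against 462, 468 and 414 in wild-type livers (log2 change 0.11 ± 0.09; limma adjusted p = 0.47), and the other changed by 0.055 ± 0.087 (limma adjusted p = 0.71). The within-array log2 difference of Pklr minus Pkm was 0.91, 2.08 and 0.52 in knock-in livers against 3.27, 3.95 and 3.41 in wild-type livers. The genotypes differed by -2.37 in this quantity. Neither Pklr nor this Pkm probe set overlapped between genotypes, and they lay in opposite directions, so the gap follows from the single genes and is no further test. Pklr is also transcribed in red cell precursors, from its upstream start, and erythroid markers were read on the same arrays. Of 6 listed, 3 were measured, with summed intensities of 314 to 435 in knock-in and 473 to 612 in wild-type mice. The red cell heme synthesis gene Alas2 read 268, 197 and 149 against 445, 315 and 410 and was called lower, and Slc4a1 and Epb42 were not called. Their part in the Pklr result was not tested.

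Mlxipl, which encodes ChREBP, read 1645, 1607 and 2012 in knock-in livers against 2534, 2931 and 2446 in wild-type livers. Every knock-in mouse lay below every wild-type mouse, and 41.2% of all tested probe sets were likewise apart, in either direction. Knock-in replicate 5 was the highest knock-in mouse here, unlike for Slc2a2 and Pklr. The log2 change was -0.59 ± 0.12 (SE, n = 3 mice per genotype; 95% interval -0.87 to -0.30; limma adjusted p = 0.012). The call was lost without knock-in replicate 1 (log2 change -0.54; adjusted p = 0.051). The gene makes a second, shorter protein from an alternative first exon, and its single probe set does not tell the forms apart here.

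Its partner gene Mlx was not called (910 to 1061 against 982 to 1096; log2 change -0.09 ± 0.10; limma adjusted p = 0.59). Mlxip, the close relative of ChREBP known as MondoA, read 501, 516 and 548 in knock-in livers against 213, 316 and 329 in wild-type livers. It was higher in every knock-in mouse (1.81-fold; log2 change 0.85 ± 0.16; limma adjusted p = 0.0088).

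Known ChREBP targets moved in both directions. Of 23 partners and targets, all tested, 14 fell, 3 rose and 6 were not called, with a median log2 change of -0.90. The shares over all 16148 genes tested were 13.7% called lower and 13.0% higher. Only 9 of the 23 fell without knock-in replicate 1, and their median was -0.59 without wild-type replicate 4. The part of ChREBP, or of any other factor, in these changes was not tested. Among those of fat synthesis, Fasn, the fatty acid synthase, read 1300, 1301 and 1484 against 4094, 7181 and 4103 (log2 change -1.85 ± 0.21; limma adjusted p = 0.0015). Acaca, the first enzyme of fat synthesis, fell by 1.63, and its stimulator Mid1ip1 fell by 1.71. Named after their values were seen, the elongase gene Elovl6 fell by 2.91, the lipogenic factor gene Thrsp fell by 2.93 and the malic enzyme gene Me1 fell by 2.39.

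The 3 that rose were Mlxip and the arrestin-family genes Txnip and Arrdc4, both of which are known to restrain glucose uptake and to respond to sugar through ChREBP or MondoA. Txnip read 10293, 7515 and 9907 in knock-in livers against 2782, 2004 and 2986 in wild-type livers. Its groups stood far apart (3.57-fold; log2 change 1.83 ± 0.18; limma adjusted p = 0.00084). Arrdc4, named after its values were seen, read 1245, 958 and 1526 against 500, 586 and 469 (log2 change 1.22 ± 0.18; limma adjusted p = 0.0032).

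**Figure D3:**
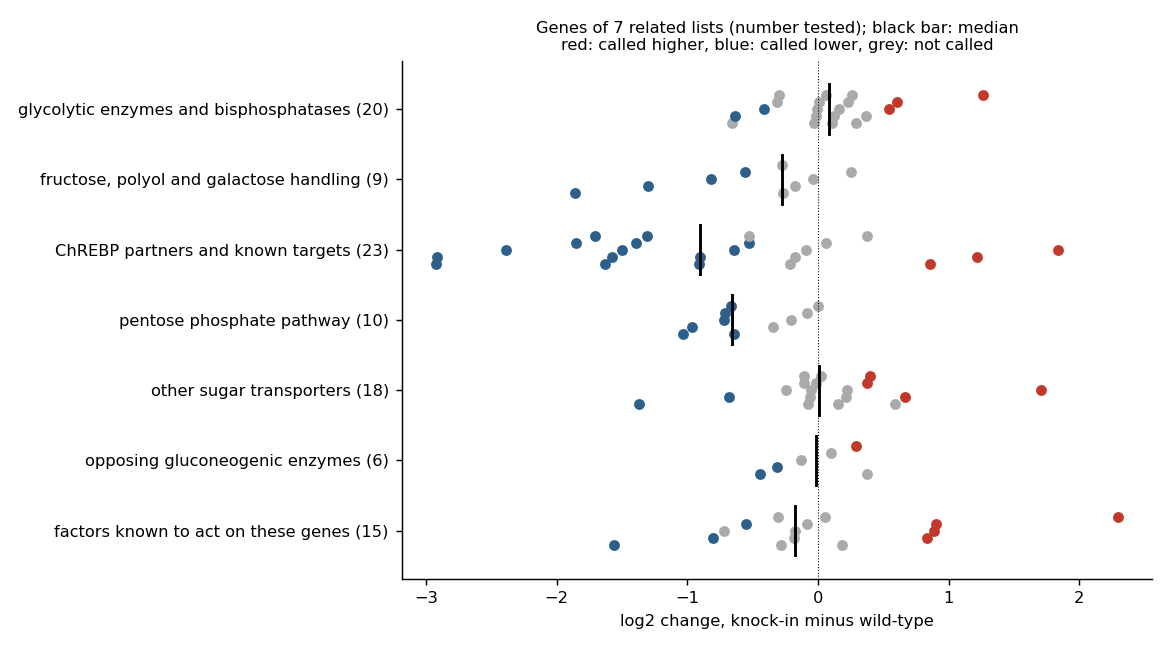
Log2 change (knock-in minus wild-type) of each tested gene in 7 lists around the members, with the number tested in brackets and the list median as a black bar. Most called ChREBP targets and all called pentose phosphate genes lie below 0, while the sugar transporters are called on both sides.

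The pentose phosphate pathway, which branches off after the first phosphorylation of glucose, had 10 genes tested. Of these 6 fell, 0 rose and 4 were not called, with a median log2 change of -0.66. The shares over all 16148 genes tested were 13.7% called lower and 13.0% higher. Rpia, which isomerises ribose phosphate, read 114, 109 and 121 against 233, 302 and 226 (log2 change -1.04 ± 0.12; limma adjusted p = 0.0016). Prps2 fell by 0.96, Pgd fell by 0.72 and Taldo1 fell by 0.71. The other 2 calls, named after their values were seen, were those of Tkt, the transketolase also counted among the ChREBP targets (log2 change -0.65 ± 0.18; limma adjusted p = 0.036), and Shpk, a sedoheptulose kinase (-0.67 ± 0.16; limma adjusted p = 0.020). The call of Tkt was lost with no filter and when any 1 mouse but knock-in replicate 3 was left out (adjusted p = 0.057 to 0.11). That of Shpk was lost when knock-in mouse 1, or wild-type mouse 4 or 6, was left out (adjusted p = 0.058 to 0.073). Only 4 of the 10 genes fell when knock-in mouse 1, or wild-type mouse 6, was left out. G6pdx was not analysed here.

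Enzymes that run against glycolysis moved in both directions, with log2 changes from -0.44 to 0.37. Of 6 tested, 2 were called lower (Fbp1 by -0.44 and Pcx by -0.31), and 1 higher. That was Pck1, which makes phosphoenolpyruvate (0.29 ± 0.08). The median log2 change of -0.0135 lies between opposite changes. The shares over all 16148 genes tested were 13.7% called lower and 13.0% higher. The call of Pck1 was lost under 8 alternatives (adjusted p = 0.054 to 0.12), among them centred arrays and the omission of knock-in mouse 1 or 5, or of wild-type mouse 2 or 4. That of Fbp1 was lost with no filter and when knock-in mouse 1, or wild-type mouse 2, 4 or 6, was left out (adjusted p = 0.051 to 0.086). That of Pcx was lost when knock-in mouse 1 or 5, or wild-type mouse 2 or 6, was left out (adjusted p = 0.069 to 0.10). G6pc, which releases free glucose, read 11436 to 13248 against 7830 to 10638 and was not called (log2 change 0.37 ± 0.13; limma adjusted p = 0.069), though it was when only the brighter probe sets, from the 50th percentile up, were tested (adjusted p = 0.049).

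Of 18 transcription factors and coactivators known to act on these genes, 15 were tested. Of those, 4 were called higher, 3 lower and 8 not called, with a median log2 change of -0.18. The shares over all 16148 genes tested were 13.0% called higher and 13.7% lower. Ppargc1a, a coactivator of glucose production, read 6447, 5678 and 5635 against 871, 1433 and 1346 (4.92-fold; log2 change 2.30 ± 0.18; limma adjusted p = 0.00047). Hnf4a, a hepatocyte factor, read 8707 to 9461 against 4529 to 5479 (1.79-fold). Rora rose 1.87-fold, and Foxo1, an insulin-restrained factor named after its values were seen, rose 1.85-fold, a call lost without knock-in replicate 5 (adjusted p = 0.054). Ppara, a lipid-sensing receptor, was 2.95-fold lower. Foxa1 and the sterol-sensing receptor gene Nr1h3, both named after their values were seen, had log2 changes of -0.81 and -0.55. The call of Nr1h3 was lost when knock-in mouse 1, or wild-type mouse 2, 4 or 6, was left out (adjusted p = 0.054 to 0.069). Srebf1, also named after its values were seen, read 918, 669 and 1214 in knock-in livers against 1905, 1353 and 1311 in wild-type livers. It was not called (log2 change -0.72 ± 0.23; limma adjusted p = 0.059), but was under 4 alternatives (adjusted p = 0.027 to 0.043).

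The order of mice within a genotype varied between the members. Knock-in replicate 3 was the highest knock-in mouse for Slc2a2, Gckr, Khk, Pfkl and Pklr, 5 of the 7 genes, and the lowest for Mlxipl. Knock-in replicate 5 was the lowest for 6 genes and the highest for Mlxipl. Among wild-type mice, replicate 4 was the highest for Slc2a2, Khk, Pklr and Mlxipl, and replicate 2 the lowest for 4 genes.

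**Figure D4:**
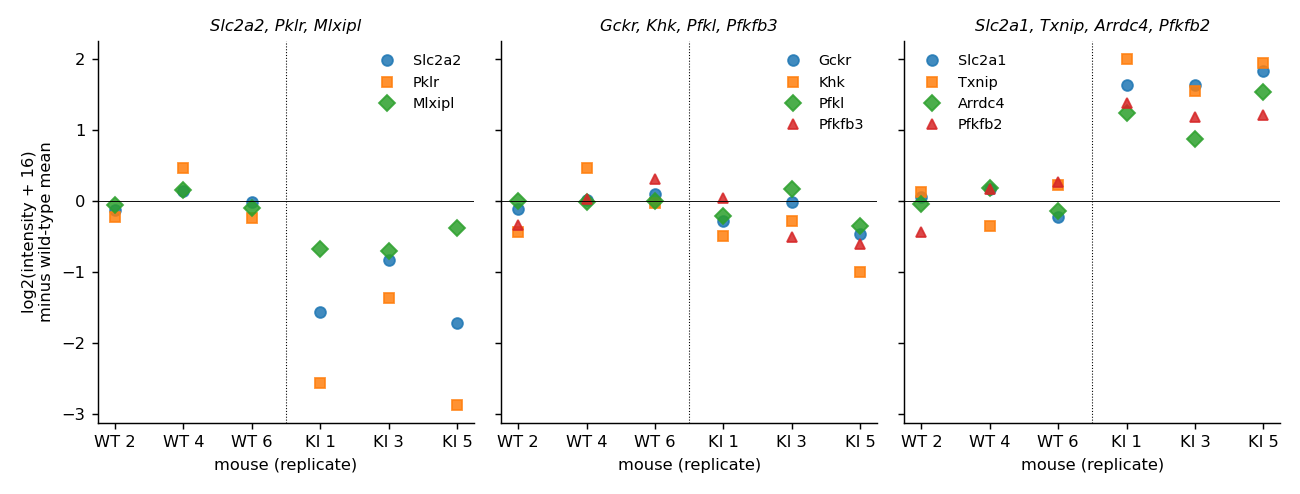
Log2(intensity + 16) minus the wild-type mean in each mouse, for the 3 genes called lower (left), the 4 not called (middle) and 4 related genes called higher (right). Knock-in replicate 3 lies nearest to the wild-type mice for Slc2a2 and Pklr, while for Mlxipl it is the lowest.

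Profiles over the 6 arrays were compared by the root mean square difference of mean-centred log2 intensities. The candidates were 16658 tested probe sets with 1 symbol, with clone and predicted-gene names left out. Each gene was taken by its closest probe set, whether or not that was its brightest. The gene most like Pklr was Me1 (0.12, by the dimmer of its 2 probe sets), followed by Sc5d (0.21). Slc2a2 was most like Lrit1 (0.10) and Bbox1 (0.11), and Mlxipl most like Acot11 (0.058) and Stat5a (0.059). Gckr was most like Ing4 (0.029) and Cep350 (0.034), and Pfkl most like Nf1 (0.030) and Pdha1 (0.035). For Khk the closest were Lrrc28 (0.13) and Pgm3 (0.18), and for Pfkfb3 Lpp (0.18) and Spty2d1 (0.19). These likenesses describe 6 arrays and were not tested.

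Markers of the cell types a liver sample can hold were read on the same arrays. Their calls stand beside shares over all 16148 genes tested of 13.7% called lower and 13.0% higher. In bulk tissue, fewer cells of a type and less RNA per cell cannot be told apart. Hepatocyte markers, 9 of 10 measured, summed to 124576 to 133112 in knock-in and 128594 to 130659 in wild-type mice. Of these Apoa2 was called lower and Tat higher. Pancreas markers, 6 of 8 measured, summed to 357 to 403 and 360 to 389, with no member called, and Ins2 at 74 or less on every array. Kupffer cell and macrophage markers (12 of 12 measured) summed to 3959 to 6891 and 5688 to 9630, with Adgre1 called lower. Endothelial markers (10 of 10) summed to 6159 to 8442 and 7543 to 8011, with 4 called lower and 2 higher. Stellate cell and fibroblast markers (10 of 10) summed to 8002 to 9459 and 7223 to 8248, with 1 called in each direction. Neutrophil markers (8 of 8) summed to 561 to 614 and 404 to 447, with 4 called higher, 3 not called and 1 below the filter. Those 4 were dim, at 68 to 102 in knock-in and 34 to 71 in wild-type mice. Markers called higher, as Slc2a1 was, thus came from several cell types, and their part in its rise was not tested. Lymphocyte markers (7 of 8) summed to 439 to 475 and 482 to 547, with 1 called lower. Cholangiocyte (386 to 411 and 385 to 411), adipocyte (251 to 298 and 254 to 282) and skeletal muscle markers (470 to 506 and 452 to 468) had no member called.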

How the data were processed

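Each of the 6 arrays was deposited as intensities of 35512 probe sets, in whole numbers on a linear scale. How the authors summarised, background-corrected and normalized them is not stated in the sources used here. RNA was column-purified and biotin-labelled, per the labels. Columns were matched to mice by sample identifier.

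Platform annotation, which can be old, gave 21789 probe sets 1 symbol, 1621 several and 12102 none. Intensities entered as log2(value + 16), so changes of dim genes are understated. The 26664 probe sets whose mean reached the 25th percentile entered limma 3.58.1 (R 4.3.3; eBayes with trend), with Benjamini-Hochberg adjustment over all of them and a threshold of 0.05. The procedure was tested on simulated data in which few probe sets changed, each by more than Mlxipl did. That setting differs from these data, so it does not check the calls made here. A gene with several probe sets is given by its brightest, except in the likeness of profiles, which compared every candidate probe set. Of the genes named from the lists, Pgam1 has 3 probe sets. Hk1, Ldhb, Acaca, Me1, Mid1ip1 and Ppargc1a have 2 each. Whether their dimmer probe sets share the calls is not reported here. The planned within-array permutation tests of Pklr against Pkm and Slc2a1 against Slc2a2 are not reported as tests, because in both pairs each gene was already apart between genotypes, in opposite directions, which fixes the outcome. Named genes are the members, up to 4 genes per list by smallest p, fixed isoenzymes and partners, the 2 most alike genes per member, and those marked as named after their values were seen. The members and lists were chosen with earlier results of these data known. P-values set the genotype difference against the spread among 3 mice per genotype, after eBayes pulled that spread toward a trend over all tested probe sets. The number of arrays limits the precision. Sequences are from RefSeq (GRCm38.p6), while no source used here names a build for the probe sets. Figures were drawn with matplotlib 3.10.9. The 16 alternatives were pseudocounts of 1 and 64, quantile normalization, median centring, no filter or the 50th percentile, eBayes without trend or with a robust prior, array weights, only probe sets with 1 gene, and each mouse left out. The mean over a gene's probe sets was not run for the members, which have 1 each.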

Additional observations from a re-analysis of the deposited data

How the results depend on the processing

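The log2 changes of the 7 members were negative under all 16 alternatives, and 110 of 112 kept their side of the threshold. The exceptions left out 1 mouse each. Gckr gained a call without knock-in replicate 3 (-0.37, adjusted p = 0.039; range -0.37 to -0.15 with each mouse left out; adjusted p = 0.039 to 0.47 over all alternatives). Mlxipl lost its call without knock-in replicate 1 (-0.54, adjusted p = 0.051; range -0.69 to -0.51; adjusted p = 0.0059 to 0.051). Leaving out a mouse gave 2 to 4 members called lower. Over the same omissions Pklr ran from -2.72 to -1.96 and Slc2a2 from -1.64 to -1.20. Over all probe sets, omissions gave 1810 to 3457 called lower and 2427 to 4293 called higher, with knock-in replicate 1 left out giving the lowest of both. Leaving out wild-type mouse 2 gave 1881 lower and 2612 higher, and leaving out wild-type mouse 6 gave 2581 higher. On probe sets with exactly 1 gene, where fewer were tested, 2641 were higher. The cause of the other shifts was not tested. For the lists, 24 of the 336 values moved. No paired analysis was possible because the genotypes share no replicate numbers. Signal over background was not analysed here, and the adjusted p of genes such as Khk is limited by the spread among 3 mice.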
